A study of Zea mays with 7 samples.

Results

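H3K9ac, an acetylation of the tail of histone H3, is laid down by histone acetyltransferases and marks the first nucleosomes of transcribed genes as well as active enhancers. In plants it typically sits just downstream of the transcription start site (TSS), and it is lost when a gene or enhancer is switched off. This account concerns 2005 H3K9ac-enriched regions of maize husk that had no overlapping region in the seedling stem list, although a listed seedling stem region lay close by. These members were chosen by their coordinates alone: a husk region had to share 0 bp with every region of V2-IST, the inner stem tissue of young seedlings, and its gap to the nearest V2-IST region, measured from edge to edge, had to be at most 5000 bp. They made up 7.16% of the 28004 husk regions (95% Wilson interval 6.86 to 7.47%) and 16.8% of the 11952 husk regions without a V2-IST counterpart (16.1 to 17.5%). Husk regions without a counterpart were 42.7% of the husk list, and the other 9947 of them lay more than 5000 bp from any V2-IST region.

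ChIP-seq was performed on 3 replicates of husk, the soft inner leaves around an ear with emerging silks, and on 2 replicates of V2-IST, the stem of seedlings at the V2 stage without outer leaves and exposed blades. Both tissues came from untreated greenhouse plants of the inbred line B73, and the labels list 1 input chromatin sample for husk and 1 for V2-IST. Each library pooled several immunoprecipitations of bulk tissue, so that fewer cells carrying the mark and less of the mark per cell cannot be told apart. The authors combined the replicates into 1 list of regions per tissue, which holds only positions on the AGPv4 genome, without signal, score or depth.

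The spread between replicates can thus not be given for any value below. The study reports that part of the peaks of each V2-IST replicate had no overlap in the other. Such peaks can be missing from the V2-IST list, and a member can lie at one of them. Intervals are 95% intervals over regions, which are not biological replicates, and no test was run, since the members were taken from the same lists. A region missing from the V2-IST list was not called in both replicates with sufficient overlap, which is not the same as an absence of acetylation. The same holds for the husk list, where a region had to be called in all replicates. The tissue labels could not be checked against marker genes, as the lists carry no expression or signal. Coordinates below are AGPv4 and counted from 1.

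One member lay at the upstream enhancer of b1, a gene that encodes a basic helix-loop-helix activator of anthocyanin synthesis. The enhancer is known as a tandem repeat from the B-I allele, whereas B73 carries a single copy of the repeated sequence, so that its activity in the plants used here does not follow from that allele. For B73 the study reports that b1 expression differed between the tissues in the direction known from the line with the repeat. It also called the enhancer a husk candidate, and its ChIP-qPCR for H3K9ac there fitted the husk specificity it had expected. The study's primer table gives the position of the locus without naming a build, and it was taken to be AGPv4 like the region lists. The husk region ran from chr2:19550082-19552764 and was 2683 bp long. The nearest V2-IST region, chr2:19546145-19546840, was 696 bp long and lay 3241 bp away. On the other side, the next V2-IST region was 366757 bp away. At the nearby V2-IST region husk had a region of its own, chr2:19546115-19547875, of 1761 bp. It reached 1035 bp past the V2-IST region on the side of the enhancer and 30 bp on the other side. Between both husk regions, 2206 bp were without a listed region. None of the other loci for which the study designed such primers, the tb1 enhancer, DICE and a candidate on chromosome 5, held a member (0 members each).

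The oligonucleotides that the study designed for ChIP-qPCR at this locus are shown because they mark the summit (P), the slope (S) and the outside (O) of this husk peak. They are printed 5′ to 3′ in lower case, with nothing set in capitals, and their exact positions within the region were not determined here. The primers measured between 22 and 26 bases.
b1 P forward: atgactatgacagaggattaga
b1 P reverse: ggagccatctagttgttaatag
b1 S forward: caggcttagcctcagcctatcg
b1 S reverse: tgcactatttgtccactagtcaccg
b1 O forward: gacaacaatgcatttttggtgtaggg
b1 O reverse: atcaaccaggatcatgaaaccatcc
G and C made up 36.4% and 40.9% of the summit primers, 59.1% and 48.0% of the slope primers, and 42.3% and 44.0% of the outside primers.

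**Figure D1:**
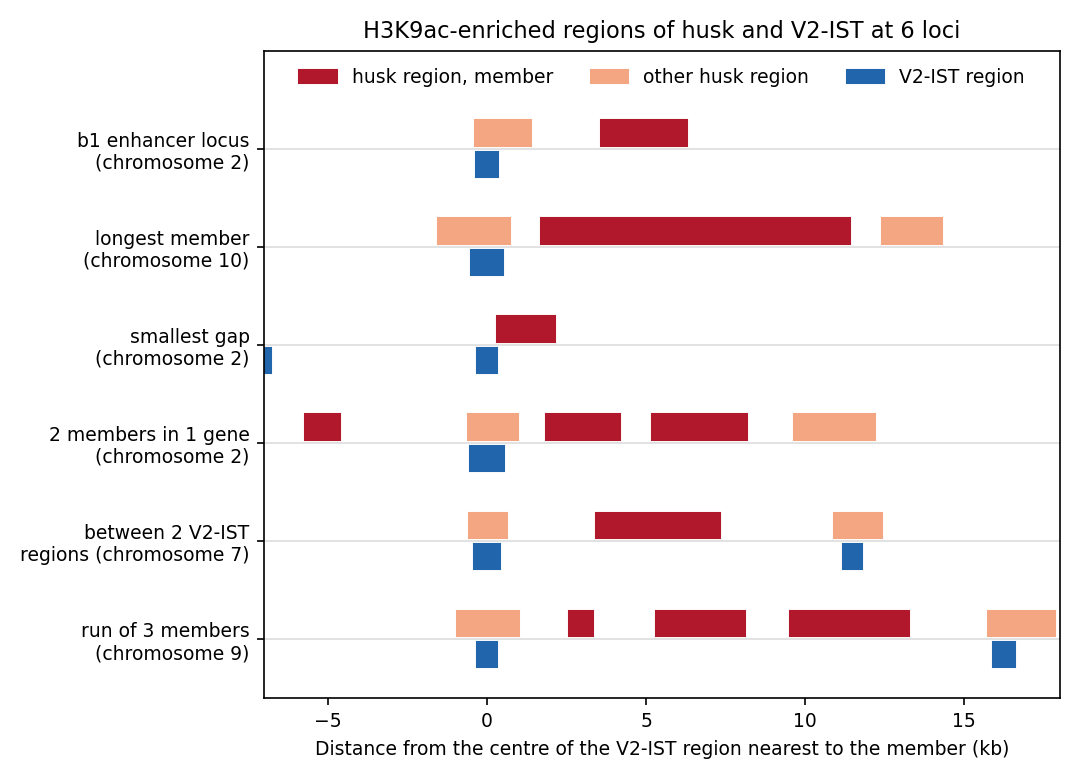
Husk regions (upper bars, members dark and other husk regions light) and V2-IST regions (lower bars) at 6 loci, by distance in kb from the centre of the V2-IST region nearest to the member. At the b1 enhancer locus the member of 2683 bp lies 3241 bp beyond a V2-IST region that has a wider husk region of its own, whereas at the locus with the smallest gap the V2-IST region has no husk region above it.

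The gap to the nearest V2-IST region had a median of 2857 bp (2782 to 2937 bp, quartiles 1929 and 3817 bp). Because the rule sets its upper limit, the gap is given as a description. Short gaps were rare, with 3 members at 500 bp or less and 47 between 500 and 1000 bp. The number per 500 bp was 239 between 1000 and 1500 bp, reached 279 between 3000 and 3500 bp and was 201 between 4500 and 5000 bp. Beyond the limit the counts went on without a step, with 198 husk regions between 5000 and 5500 bp and 115 between 9500 and 10000 bp. The members just inside the limit had gaps of 4983, 4993 and 4996 bp, and the husk regions just outside it gaps of 5002, 5005 and 5005 bp. The V2-IST region lay at the lower coordinate for 999 members (49.8%, interval 47.6 to 52.0%).

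**Figure D2:**
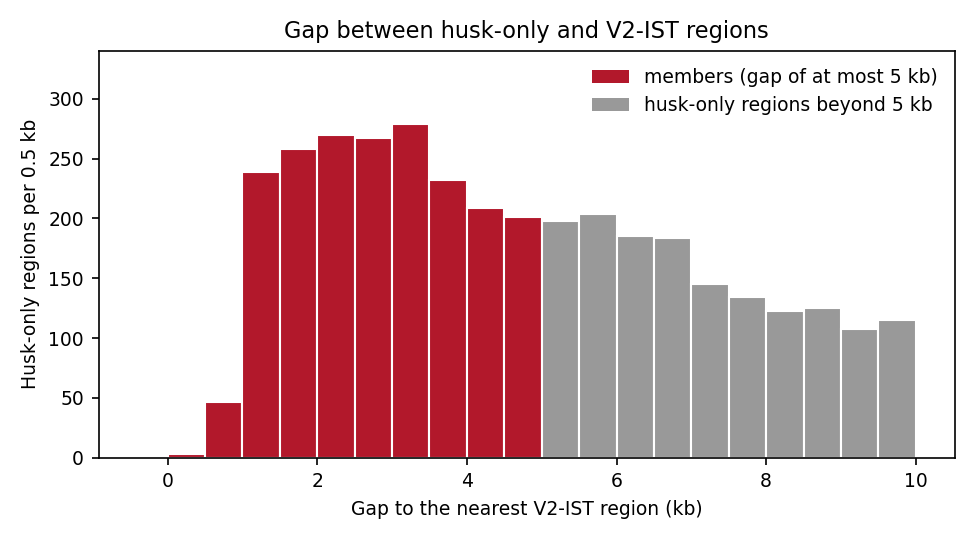
Number of husk-only regions per 0.5 kb of gap to the nearest V2-IST region, with members (gap of at most 5 kb) dark and farther regions grey. Counts climb over the first 1500 bp, stay between 201 and 279 per bin up to 5000 bp, and decline past the limit without a break.

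The members were longer, by median, than both other classes of husk regions, a difference that was not tested. They had a median length of 1117 bp (1074 to 1171 bp, quartiles 723 and 1726 bp), compared with 982 bp for husk-only regions farther away (967 to 998 bp) and 1023 bp for husk regions that overlapped V2-IST (1012 to 1035 bp). Regions longer than 2000 bp were 17.8% of the members (16.2 to 19.5%), against 14.4% of the farther husk-only regions (13.7 to 15.1%) and 14.3% of the overlapping ones (13.8 to 14.8%). Regions shorter than 500 bp were 7.23% of the members, 9.09% of the farther husk-only regions and 1.22% of the overlapping ones. In sum the members covered 2732215 bp, which was 7.54% of the length of all husk regions.

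**Figure D3:**
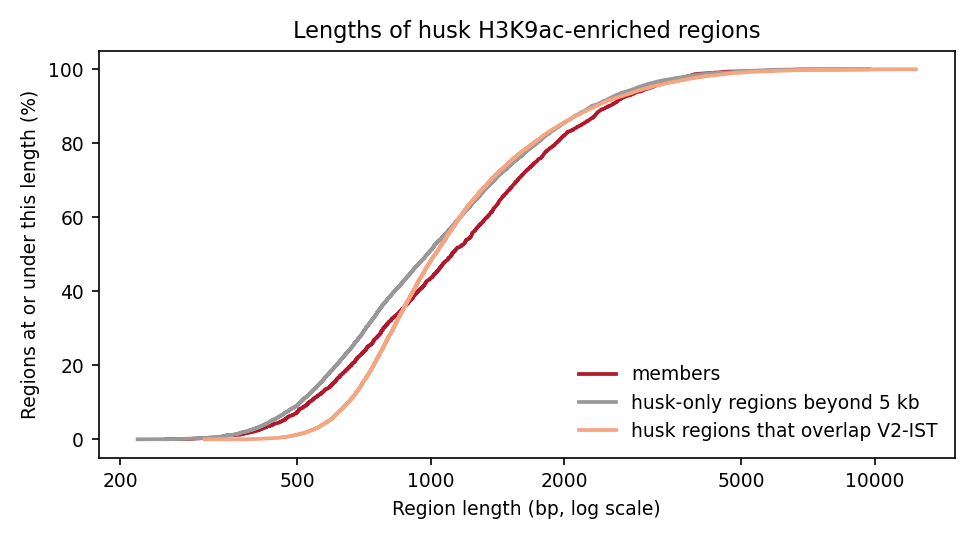
Cumulative share (%) of husk regions at or under each length (bp, log scale) for members, for husk-only regions beyond 5 kb and for husk regions that overlap V2-IST. The curve of the members (median 1117 bp) runs to the right of that of the farther husk-only regions (median 982 bp), and both hold more regions under 500 bp than the overlapping regions.

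The lengths varied widely among members. Median length was 1182 bp for the 50 members with a gap under 1000 bp, 1132 bp between 1000 and 2000 bp, 1169 bp between 2000 and 3000 bp, 1100 bp between 3000 and 4000 bp and 1074 bp from 4000 bp on, and the intervals of these medians all overlapped. The shortest member, chr5:196846698-196846951, was 254 bp long. The longest, chr10:128389451-128399151, covered 9701 bp. A V2-IST region of 1023 bp lay 1183 bp from it, at chr10:128387245-128388267, within a husk region of 2270 bp. Here 972 bp separated both husk regions.

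Most other chromosomes held a member of several kb. The longest member of chromosome 9, chr9:147880420-147887543, measured 7124 bp, and the next V2-IST region, of 976 bp, lay 1458 bp away. On chromosome 1 the longest was chr1:17138105-17144790, of 6686 bp, beside a V2-IST region of 835 bp at a gap of 2589 bp. Those of chromosomes 5 and 6 measured 6555 and 6393 bp, with gaps of 3730 and 4304 bp. On chromosome 2 the longest member, chr2:208703653-208709661, was 6009 bp long and lay 3145 bp from a V2-IST region of only 336 bp. The longest members of chromosomes 3, 4, 7 and 8 measured 3853, 5698, 4604 and 4355 bp.

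What husk showed at the V2-IST region itself was not part of the rule. The members had 1908 different V2-IST neighbours, which was 11.1% of the V2-IST list. Of these, 1812 overlapped a husk region (94.97%, interval 93.9 to 95.9%), close to the 94.5% of all 17170 V2-IST regions that did so. For 1907 of the 2005 members (95.1%) husk thus had at least 1 region at the V2-IST neighbour and the member as another, separate region beside it. Counted per member, this restates the share above, which was near that of all V2-IST regions. Such a member and the husk region at its neighbour are called a pair below. The V2-IST neighbours had a median length of 615 bp (597 to 633 bp), and all V2-IST regions of 603 bp (598 to 608 bp).

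As groups, the members and the husk regions at their neighbours had similar medians, while the regions of a single pair often differed in length. The member had a median length of 1120 bp (1082 to 1186 bp) and the husk region at the neighbour of 1179 bp (1144 to 1224 bp). The member was the longer at 863 of 1907 pairs (45.3%, interval 43.0 to 47.5%). Within pairs the difference, member minus the husk region at the neighbour, had a median of -96 bp (-145 to -52 bp) with quartiles of -700.5 and 519.5 bp. Members were also longer than the V2-IST region beside them in 76.1% of cases (74.1 to 77.9%). The same share was not computed for other husk regions. By median, farther husk-only regions (982 bp) and overlapping husk regions (1023 bp) also exceeded the V2-IST regions (603 bp). Husk regions were merged from 3 replicates and V2-IST regions from 2, so that here too replicate number and tissue cannot be told apart.

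At 1879 pairs no other husk region came between. The stretch without a listed husk region then had a median of 2423 bp (2333 to 2525 bp, quartiles 1530.5 and 3458 bp), while the gap from the member to the V2-IST region at the same sites had a median of 2838 bp. This stretch was under 500 bp at 5 sites (0.266%), under 1000 bp at 168 (8.94%) and under 2000 bp at 720 (38.3%). It was smallest, 118 bp, at the member chr5:218494981-218497585, where the husk region over the V2-IST neighbour was 6557 bp long. At the other 28 pairs at least 1 further husk region lay between the member and the neighbour.

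The husk region at the neighbour was usually wider than the V2-IST region it covered. Husk regions were merged from 3 replicates and V2-IST regions from 2, which by itself can lengthen the husk regions, and in the length ratios and overhangs below the number of replicates and the tissue cannot be told apart. Among the 1778 neighbours with a single husk region that covered no further V2-IST region, husk had the longer region at 97.2% (96.4 to 97.9%), near the 97.4% among all 15878 such sites. The ratio of husk to V2-IST length had a median of 1.71 at the neighbours (1.67 to 1.75) and of 1.60 over all such sites (1.59 to 1.61). The husk regions themselves had a median length of 1161 bp at the neighbours (1130 to 1205 bp) and 1015 bp over all such sites (1005 to 1026 bp). The intervals did not overlap, but the difference was not tested.

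Next, the side to which husk acetylation reached beyond the V2-IST region was compared for the 1873 members whose neighbour had a single husk region of this kind. The overhang of the husk region had a median of 181 bp toward the member (168 to 195 bp) and 145 bp away from it (137 to 153 bp). It was larger on the member's side for 1023 members (54.6%, interval 52.4 to 56.9%), larger on the other side for 844 (45.1%) and equal for 6. These members had 1778 different neighbours, and a neighbour entered once per member. Where members lay on both sides, the same overhangs entered with the sides swapped. The intervals thus treat linked values as separate. The mean overhang was 349 bp toward and 345 bp away, so that the means differed by less than the medians. Overhangs of at least 500 bp were found for 21.5% of these members on the member's side (19.7 to 23.4%) and for 19.7% on the other side (17.96 to 21.6%).

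This share depended on the gap. It was 25% below 1000 bp (14.2 to 40.2%, 40 members) and 45.1% between 1000 and 2000 bp (40.6 to 49.6%, 466 members). Between 2000 and 3000 bp it was 56.4% (52.0 to 60.7%, 495 members). The share was 60.7% between 3000 and 4000 bp (56.3 to 65.0%, 484 members) and 59.3% from 4000 bp on (54.3 to 64.1%, 388 members). With the limit set to 2000 bp the direction turned, to 43.6% on the member's side (39.3 to 47.9%). By construction, a husk region that reached across a short gap would have joined the member and removed it from the set. The largest overhang toward a member, 3636 bp, was found beside chr1:53372659-53373776, where the husk region over the neighbour measured 4919 bp and reached 235 bp to the other side.

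**Figure D4:**
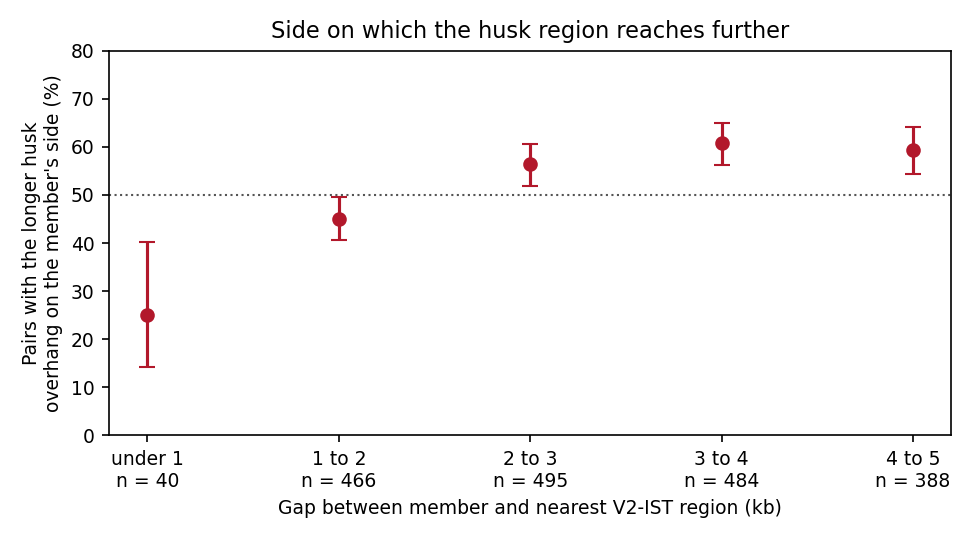
Share (%) of members for which the husk region over the V2-IST neighbour reaches further on the member's side than on the other side, by gap in kb. Points are shares with 95% Wilson intervals and the dotted line marks equal shares; the share is 25% below 1 kb and 60.7% between 3 and 4 kb.

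At the other 98 members, the V2-IST neighbour overlapped no region of the husk list, so that the nearest listed regions of the 2 tissues lay at different positions. These neighbours numbered 96, which was 10.1% of the 946 V2-IST regions without a husk region (8.38 to 12.2%). For comparison, 11.2% of the V2-IST regions with a husk region were a neighbour of a member (10.7 to 11.7%). Their median length was 507 bp (441 to 587 bp), against 620 bp for neighbours with a husk region (603 to 640 bp). The members beside them had a median length of 924 bp (850 to 1195 bp) and a median gap of 2498 bp (2163 to 2886 bp). Members whose neighbour had a husk region lay at a median gap of 2886 bp (2794 to 2960 bp). Gaps under 500 bp occurred only at members without a husk region at the neighbour, as the next paragraph sets out. The difference in median gap was not tested.

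All 3 members with a gap under 500 bp belonged to these 98. Where the neighbour had a husk region, that region reached past it toward the member in 95.2% of cases. Only 5 members lay under 500 bp from such a husk region. Among members whose neighbour had a husk region, the smallest gap to V2-IST was 581 bp, an observed spacing that the rule did not set. At chr2:84794976-84796807, a husk region of 1832 bp began 6 bp after the end of a V2-IST region of 605 bp, chr2:84794365-84794969. At chr3:226649944-226651627, a husk region of 1684 bp ended 278 bp before a V2-IST region of 559 bp. At chr2:172065646-172067155, a husk region of 1510 bp began 337 bp after a V2-IST region of 323 bp. In each case the listed regions of the tissues lay close together without sharing a base. The longest member of this kind, chr6:164487747-164492341, measured 4595 bp and lay 1416 bp from a V2-IST region of 1538 bp.

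Most members had no further V2-IST region within 5000 bp on the side away from their neighbour. A V2-IST region lay within 5000 bp on each side at 144 members (7.18%, interval 6.13 to 8.40%). Both of these V2-IST regions overlapped a husk region at 129 of the 144 (89.6%, interval 83.5 to 93.6%). Taken singly, 94.5% of all V2-IST regions overlapped one, and the share over other pairs of V2-IST regions was not computed. The members between them had a median length of 1190 bp and took up a median of 17.3% of the span between the V2-IST regions, with a range of 5.56 to 52.4%. The longest of them, chr7:144831132-144835046, measured 3915 bp and lay 2998 and 3850 bp from the V2-IST regions at its sides. At chr1:267360645-267361057, a member of 413 bp had V2-IST regions at 1037 and 1291 bp, the tightest such pair.

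On the side away from the neighbour, the next husk region lay at a median distance of 33236 bp (29029 to 36100 bp). It lay within 5000 bp at 377 members (18.8%, interval 17.2 to 20.6%). Of these 377 regions, 166 were husk-only regions more than 5000 bp from V2-IST, 150 overlapped V2-IST and 61 were members themselves. Over all 28004 husk regions these classes numbered 9947, 16052 and 2005. The distance and the shares were not computed for other husk regions, so they cannot set the members apart.

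Few members came in groups. Of the 1908 neighbours, 1814 had 1 member, 91 had 2 and 3 had 3. Among the 94 neighbours with more than 1 member, 68 had members on both sides (72.3%, interval 62.6 to 80.4%). The rule bears on this share, because members on the same side have to fit within the same 5000 bp, whereas each side has its own. No share to set beside it was computed. At chr9:11788378-11789568, a V2-IST region of 1191 bp lay between members of 686 and 499 bp on one side and of 1233 bp on the other. At chr10:142067988-142068339, a V2-IST region of 352 bp lay between members of 1026 and 648 bp on one side and of 2345 bp on the other. The longest run of members following each other in the husk list held 3, at chr9:111951033-111951801, chr9:111953774-111956555 and chr9:111957993-111961721. They measured 769, 2782 and 3729 bp and filled part of the interval between a V2-IST region of 643 bp and one of 698 bp.

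The positions of the members relative to genes could be read only for genes that the study linked to its enhancer candidates and placed on AGPv4. These genes were selected by the study with regard to expression and distance to candidates, so that the following counts describe them and not genes in general. There were 823 such genes with a position. The same counts were not made for the other husk regions, so they cannot set the members apart from husk regions in general. With such a gene, 64 members shared at least 1 bp. Of these, 22 held the start of the gene, 33 lay wholly inside it and 9 covered another part of it. The nearest V2-IST region lay in the same gene for 25 of the 64 members, among them 5 of the 22 at gene starts and 13 of the 33 inside genes. In 5 of the 64 cases the nearest V2-IST region held the start of the gene that the member shared.

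The genes named here were picked after their values were seen, and the tables used give no symbol for their IDs. Within Zm00001d002006, on the minus strand of chromosome 2, the V2-IST list held a region of 1068 bp, chr2:4277776-4278843. Husk had a region there as well, of 1567 bp, and 2 further regions in the same gene that were members. The first, chr2:4280152-4282484, lay inside the gene and measured 2333 bp. The second, chr2:4283483-4286468, held the gene start and measured 2986 bp. Another member with the same neighbour, chr2:4272588-4273696, lay on the other side. Likewise in Zm00001d018001, on the minus strand of chromosome 5, a member of 3013 bp held the gene start and a member of 682 bp lay inside the gene, at gaps of 4191 and 1032 bp from the same V2-IST region. The longest member of chromosome 9, of 7124 bp, held the start of Zm00001d048008, while its V2-IST neighbour lay outside that gene. In Zm00001d005392, by contrast, the V2-IST region held the gene start and the member of 1510 bp at a gap of 337 bp lay further inside the gene.

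Members occurred on all chromosomes, from 130 on chromosome 10 to 307 on chromosome 1. Density was highest on chromosome 5, with 1.10 members per Mb, and lowest on chromosome 4, with 0.810. As a share of the husk-only regions of a chromosome, members ranged from 15.1% on chromosome 4 (13.3 to 17.2%) to 17.98% on chromosome 2 (16.1 to 20.1%), and the intervals of all chromosomes overlapped. Differences between chromosomes were not tested. Median length per chromosome lay between 1047 and 1176 bp.

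Along the chromosomes the members were concentrated toward the ends, where maize genes are denser. The first and the last 20% of the chromosomes, by coordinate, together held 64.9% of the members (62.8 to 67.0%), compared with 52.4% of the farther husk-only regions (51.4 to 53.4%) and 54.8% of the V2-IST regions (54.0 to 55.5%). Members made up 23.6% of the husk-only regions in the last of 10 equal parts (21.8 to 25.5%) and 19.7% in the first (17.9 to 21.7%), but 8.83% in part 5 (6.89 to 11.2%). Since the rule asks for a nearby V2-IST region, members are bound to follow the local density of V2-IST regions, and the part of this in their position was not tested. The 1 Mb window with the most members, from 148 to 149 Mb on chromosome 10, held 12 of them among 50 husk regions and 32 V2-IST regions.

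**Figure D5:**
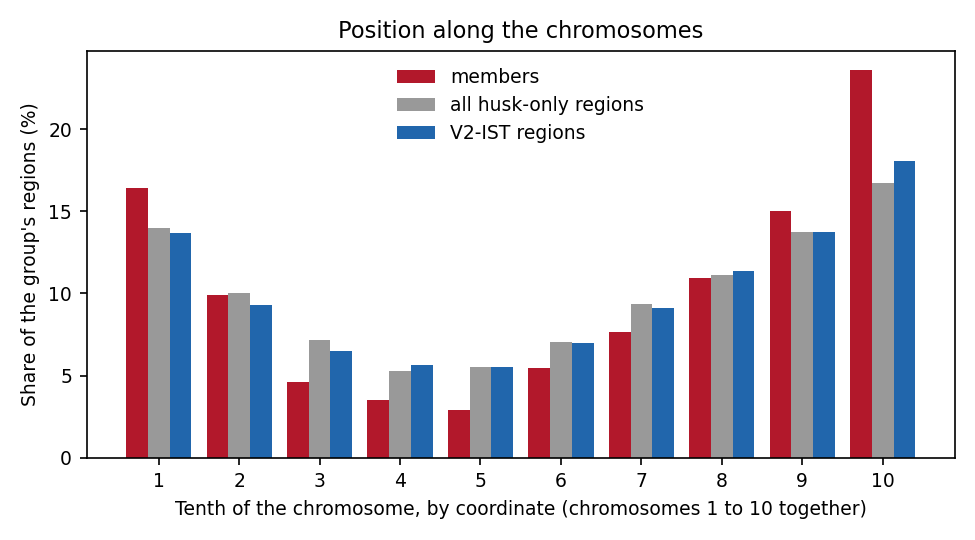
Share (%) of members, of all husk-only regions and of V2-IST regions in each of 10 equal parts of the chromosomes by coordinate, over chromosomes 1 to 10. Members have the largest share of the 3 groups in the first and last parts (16.4% and 23.6%) and the smallest from part 3 to part 8.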

How the data were processed

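H3K9ac ChIP-seq data of husk and V2-IST from the maize line B73 were used as deposited. According to the labels and methods, the authors aligned the reads to AGPv4 (B73 RefGen_v4) with BWA, filtered them on mapping quality with SAMtools, called peaks per replicate against input with MACS2, and merged peaks with sufficient overlap in length between all replicates. The values deposited by the authors are region starts and ends in bp. Versions are not given in the sources used here. The lists carry no read counts. The study states read numbers per library, which were not used here, and no detection limit was computed for a region.

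Overlap (at least 1 bp) and gaps were computed with Python 3.11.15, numpy 2.4.6 and scipy 1.17.1, and figures drawn with matplotlib 3.10.9. For all 28004 husk regions, overlap and gap were the same as from bedtools 2.31.1. On simulated data 100% of 1051 planted members were recovered. Shares carry 95% Wilson intervals and medians order-statistic intervals.

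Members, lists and rules were chosen with earlier results of these data known. Named members were the one at a locus of the study's ChIP-qPCR primers, the longest, the shortest, those with extreme gaps, the longest of each chromosome, neighbours with most members and the densest 1 Mb window, each by a fixed rule. Members with the longest run, the tightest pair of V2-IST regions, the smallest stretch between husk regions, the largest overhang, and without a husk region at the neighbour were added after values were seen. The rule also foresaw members at genes with a symbol. Gene IDs and positions came from the study's table of linked genes and primers from its primer table; 0 of the gene IDs matched the RefSeq table (assembly Zm-B73-REFERENCE-NAM-5.0), whose coordinates were not used. Alternatives were other gap limits (2000 and 10000 bp), a minimum length of 500 bp, joining of regions closer than 500 bp, an overlap of 50% and means.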

Additional observations from a re-analysis of the deposited data

How the results depend on the processing

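Of 41 alternative values, 26 stayed within the interval of the value reported (for counts and for the ratio between chromosomes, within a factor of 1.5), 14 moved and 1 changed direction. The gap limit mattered most, by construction, since it sets which regions are members. With a limit of 2000 bp there were 547 members, with a median gap of 1458 bp, 1235 bp between the husk regions, V2-IST regions on both sides at 1.65%, and the larger overhang on the member's side at 43.6%, a change of direction. With a limit of 10000 bp there were 3526 members, with a median length of 1056.5 bp, a median gap of 4408.5 bp, 3749 bp between the husk regions and V2-IST regions on both sides at 11.97%. When regions shorter than 500 bp were left out, there were 1755 members, with a median length of 1082 bp. V2-IST regions were left out too, so a husk region that overlapped only those counted as husk-only. These members are thus not a subset of the main set. Their median gap was 2960 bp and 96.5% of their neighbours had a husk region. Between the husk regions lay 2531 bp, and 4.27% of these members had V2-IST regions on both sides. The mean length was 1363 bp. Joining regions closer than 500 bp moved none of these values, but it left 2000 members and could change little. No successive V2-IST regions lay within 500 bp of each other. Only 5 members lay that close to the husk region at their neighbour. Requiring an overlap of 50% moved neither the share of neighbours with a husk region nor the side of the overhang. No paired analysis was possible because each list combines its replicates, and for the same reason no replicate could be left out. The lists do not show signal below the calling threshold in V2-IST, and the effect of the libraries' depth on the calls was not tested.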

Other observations

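Of all V2-IST regions, 13.5% had another V2-IST region within 5000 bp (13.0 to 14.0%). The 1212 gaps of up to 5000 bp between successive V2-IST regions had a median of 3131 bp (2993 to 3266 bp), compared with 2857 bp between members and V2-IST regions. No such gap was under 534 bp, whereas 3 members lay closer than that to a V2-IST region. The neighbours of these 3 members had no listed husk region, and the spacing within a single list does not bound gaps between regions of different lists.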
